A study of Homo sapiens with 8 samples.

Results

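The genes described here are 36 members of the glycolytic pathway and of the hypoxia response, chosen by name among the 18388 genes of the SLAM-Seq count table. They comprise 17 glycolytic enzymes, 2 transporters of glucose and lactate, 4 kinases that set the flux into or out of the pathway, 12 other target genes of the hypoxia-inducible factor (HIF) and HIF1A itself. SLAM-Seq was carried out in U-2OS Tet-ON cells, a human osteosarcoma line that carries the tetracycline-regulated transactivator. Cells were transfected with 50 nM of a control siRNA (siControl) or of siRNA against CGGBP1 (siCGGBP1), a protein that binds CGG repeats at promoters, and collected after 72 h. In the last 60 min both groups received 75 µM 4-thiouridine (4sU), which enters new RNA and, once alkylated, is sequenced as C in place of T. All titles also carry the word DMSO, and the labels name no hypoxia treatment. Each group held 3 libraries. Single siControl libraries with 0 and 200 µM 4sU served as background and dose reference and entered no test. The labels do not say whether the 3 libraries of a group came from separate cultures, so that p-values measure the spread between these libraries only.

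Glycolysis splits glucose into pyruvate in a chain of enzymatic steps, and lactate dehydrogenase then regenerates the NAD+ that the chain consumes. Its mRNAs are abundant in most proliferating cell lines. When oxygen is low, the α subunit of HIF escapes hydroxylation by the EGLN prolyl hydroxylases, pairs with its β partner and binds promoters and enhancers that hold the core letters ACGTG or GCGTG, and many glycolytic enzymes are known targets besides angiogenic, mitophagy and feedback genes.

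The promoter letters of the 3 glycolytic enzymes that passed the total RNA test below are shown because HIF is known to act through this short core. The bases come from RefSeq on GRCh38.p14, plus strand, and cover the 250 bases before an annotated start. Capitals mark ACGTG or GCGTG on either strand, where CACGTG holds the core on both strands. LDHA lies at chr11:18394313-18394562, PGAM1 at chr10:97427568-97427817 and TPI1 at chr12:6867281-6867530.
LDHA: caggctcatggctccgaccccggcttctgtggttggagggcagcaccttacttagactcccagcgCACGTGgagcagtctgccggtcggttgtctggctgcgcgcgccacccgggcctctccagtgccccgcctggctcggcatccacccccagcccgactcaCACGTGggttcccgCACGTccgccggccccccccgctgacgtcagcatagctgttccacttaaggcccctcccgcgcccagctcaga
PGAM1: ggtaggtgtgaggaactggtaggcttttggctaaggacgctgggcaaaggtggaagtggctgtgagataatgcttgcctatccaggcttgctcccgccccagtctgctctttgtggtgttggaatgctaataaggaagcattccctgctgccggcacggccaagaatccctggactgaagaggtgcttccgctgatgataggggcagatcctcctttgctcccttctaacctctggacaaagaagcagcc
TPI1: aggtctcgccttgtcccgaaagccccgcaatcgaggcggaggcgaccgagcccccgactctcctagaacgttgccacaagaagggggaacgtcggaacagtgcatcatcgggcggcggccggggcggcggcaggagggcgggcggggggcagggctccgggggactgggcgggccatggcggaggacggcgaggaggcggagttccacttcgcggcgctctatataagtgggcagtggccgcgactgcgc
The LDHA window held 5 matches, of which 4 belong to a pair of CACGTG palindromes, and the PGAM1 and TPI1 windows held 0. TPI1 and LDHA each have another promoter entry further downstream, in which TPI1 has 1 match of each core and LDHA 1 match of GCGTG. The PGAM1 and TPI1 windows lie inside their genes as GENCODE 44 draws them (chromosome 10, 97426191 to 97433444, and chromosome 12, 6867119 to 6870948). Over the 32 members with a promoter entry, 62 entries were listed, and ACGTG occurred in 23 of them (37.1%), against 18.5% of all 35116 entries of the same length. GCGTG occurred in 22 (35.5%), against 32.2% of all entries. Either core was present in 19 of 37 entries of the glycolytic enzymes (51.4%) and in 9 of 11 entries of the other HIF targets (81.8%), against 43.2% of all entries. Counted per gene, at least 1 entry held either core for 14 of 17 enzymes (82.4%) and 7 of 8 other HIF targets (87.5%). Among all genes with an entry this share was 47.4%. Genes with more entries have more chances of a match. The letters CGGCGGCGG on either strand, 3 CGG units in a row, were found in 3 entries (4.84%), those of HK2, ENO2 and PKM, against 4.37% of all entries. These are matches of letters in a fixed window and not measured binding sites.

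Between 10127519 and 14221516 reads were counted in the 6 libraries compared. Read counts were scaled by TMM to a common library size (normalized reads). Genes that reached 100 reads in 3 or more of these libraries, 10138 in all, were compared by the quasi-likelihood F test of edgeR, and p-values were adjusted over all of them by the method of Benjamini and Hochberg. A gene passed the test at an adjusted p under 0.05. CGGBP1, the target of the siRNA, had 1245, 1088 and 892 normalized reads in siControl replicates 1 to 3 and 212, 117 and 363 in siCGGBP1. Its log2 fold change was -2.22 (SE 0.39, edgeR adjusted p = 0.0138), and the adjusted p was 0.0633 and 0.0857 without replicate 1 of siControl or of siCGGBP1. Replicate 3 of both groups stood apart, with 13144 and 12657 genes detected against 15077 to 15724 in the other libraries. Of the 10 mesenchymal and osteosarcoma markers, 9 were listed and all 9 were tested. 7 of the 9 had a positive fold change, with a median of 0.40 on the log2 scale, and COL1A1 and SPARC rose past the test (log2 fold change 1.31 and 1.26, edgeR adjusted p = 0.00353 and 0.00638). Summed, these markers had 49955 to 59687 normalized reads in siControl and 71177 to 93562 in siCGGBP1, and the part of this difference in the results on the members was not tested. None of the epithelial, leukocyte and endothelial markers had enough reads for the test, and the highest of them in any library was EPCAM at 152 normalized reads. In bulk RNA, fewer cells of a kind and less RNA per cell cannot be told apart.

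Of the 36 members, 28 passed the filter on low counts. In total RNA, 4 of them were lower in siCGGBP1 past the test, PGAM1, TPI1, LDHA and NDRG1, and 1 was higher, ZNF395. Among all tested genes 1.21% were lower and 0.552% were higher by the same rule. In either direction 1.77% of all tested genes passed. A log2 fold change beyond 1 was reached by 3 of the 5 (PGAM1, NDRG1 and ZNF395), where 0.957% of all tested genes were lower and 0.444% higher by both criteria. Whether past the test or not, 20 of the 28 had a negative fold change, where 50.0% of all tested genes did, and the median was -0.37 on the log2 scale against 0.00 for all tested genes. An unadjusted p under 0.05 was found for 13 of the 28, against 16.4% of all tested genes. The groups did not overlap for 13 members, 11 of them lower and 2 higher in siCGGBP1, against 12.2% and 12.1% of all tested genes. HK2, one of the 11 lower, passed the filter through its siControl libraries only. For EGLN1, one of the 2 higher, the second replicates of both groups were equal to within rounding, so that it counts as separate by a negligible margin. The members were named with earlier results of these data known, so that these counts are a description and carry no test of the list.

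**Figure D1:**
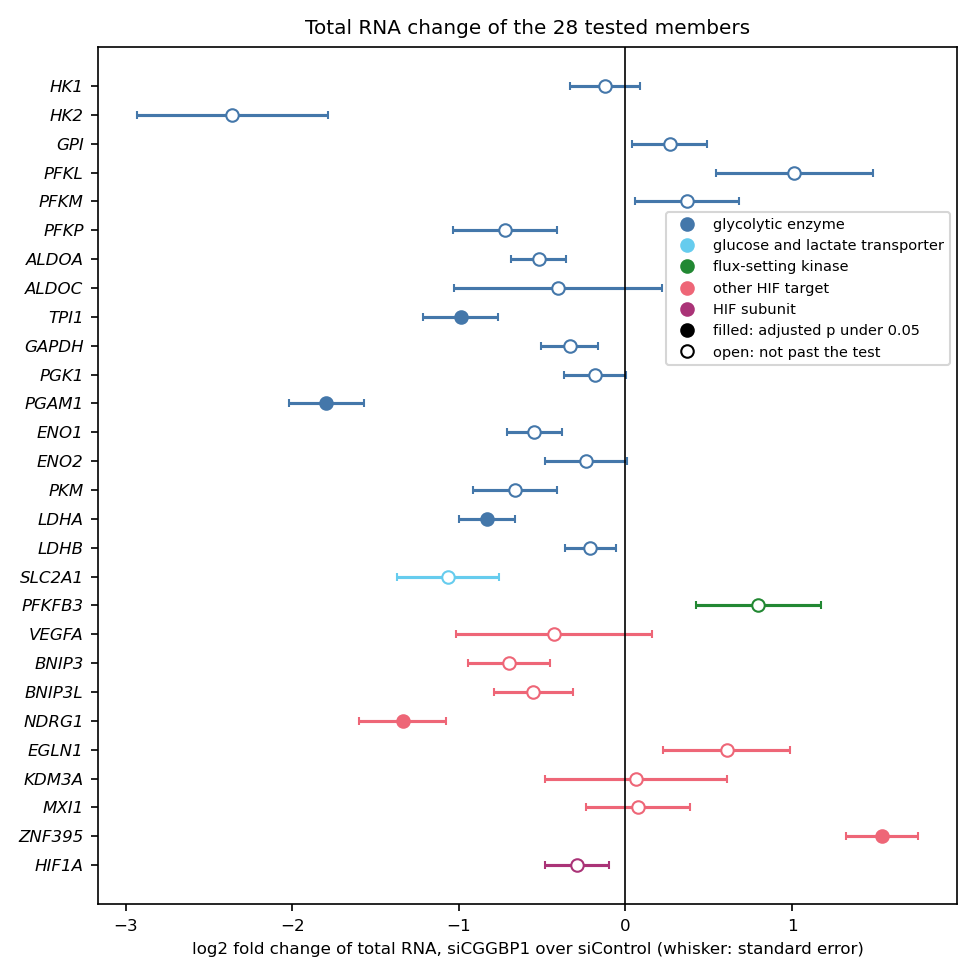
Fold changes of total RNA, siCGGBP1 over siControl, for the 28 members that passed the filter, ordered by role. Points show the log2 fold change fitted by edgeR, whiskers its standard error, and filled points the 5 members with an adjusted p under 0.05, of which PGAM1, TPI1, LDHA and NDRG1 lie left of 0 and ZNF395 right of it.

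All 17 glycolytic enzymes were expressed above the filter. 14 had a negative fold change, 3 of these past the test, and none of the 3 with a positive fold change (GPI, PFKL and PFKM) passed it. Their median log2 fold change was -0.40. HK2, one of the 14, passed the filter through its siControl libraries only. The lowest adjusted p was that of PGAM1 (ENSG00000171314), phosphoglycerate mutase, which moves the phosphate group of phosphoglycerate in the lower part of the pathway. PGAM1 had 2282, 2131 and 2742 normalized reads in siControl replicates 1 to 3 and 677, 595 and 788 in siCGGBP1. Every siCGGBP1 library lay below every siControl library, and the means were 2385 ± 318 and 687 ± 96.8 (SD, n = 3 each). PGAM1 fell 3.47-fold, a log2 fold change of -1.79 (SE 0.22, edgeR adjusted p = 0.00246). The call held when any 1 of the 6 libraries was left out.

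LDHA (ENSG00000134333, chromosome 11, 18394560 to 18408425), the lactate dehydrogenase subunit that favours the reduction of pyruvate to lactate, had 10470, 9321 and 11734 normalized reads in siControl and 5447, 6671 and 5602 in siCGGBP1. The groups did not overlap. The log2 fold change was -0.83 (SE 0.17, edgeR adjusted p = 0.0256). The adjusted p was 0.0494 without siControl replicate 2 and rose above 0.05 when any other library was left out, to 0.0777 and 0.0830 without siControl replicates 1 and 3 and to 0.140, 0.0528 and 0.0637 without siCGGBP1 replicates 1, 2 and 3. LDHB, the partner subunit of the tetramer, had 15628, 16313 and 20499 normalized reads in siControl and 15056, 14259 and 16023 in siCGGBP1. These ranges overlapped, and its log2 fold change of -0.21 (SE 0.15) did not pass the test (edgeR adjusted p = 0.544). The difference between LDHA and LDHB was not tested.

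TPI1 (ENSG00000111669, chromosome 12, 6867119 to 6870948), triose phosphate isomerase, had 8153, 8132 and 7538 normalized reads in siControl and 4494, 4949 and 2574 in siCGGBP1. All siCGGBP1 values were lower, and siCGGBP1 replicate 3 was the lowest. The log2 fold change was -0.99 (SE 0.22, edgeR adjusted p = 0.0469). Leaving out any single library lifted the adjusted p above 0.05, to 0.125, 0.122 and 0.122 without siControl replicates 1, 2 and 3 and to 0.130, 0.0545 and 0.0639 without siCGGBP1 replicates 1, 2 and 3. With replicate 3 of both groups left out, the log2 fold changes of PGAM1, TPI1 and LDHA were -1.79, -0.78 and -0.70, all past the test.

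HK2 (ENSG00000159399, chromosome 2, 74834127 to 74893359), the inducible hexokinase that traps glucose in the cell, was named after its values were seen, since it had the most negative fold change of all members. It had 390, 167 and 467 normalized reads in siControl and 91.3, 58.5 and 49.8 in siCGGBP1. Before scaling, HK2 had 79.5, 59.0 and 60.5 reads in siCGGBP1 replicates 1 to 3, below the 100 reads of the filter. It thus entered the test only through siControl, the group in which it was higher, and its values carry this limit. The groups did not overlap, although siControl replicate 2 lay well below the other siControl libraries. The log2 fold change was -2.36 (SE 0.57), and the edgeR adjusted p of 0.0579 missed the threshold, while DESeq2's Wald test gave an adjusted p of 0.00213. With each library left out in turn, the edgeR adjusted p of HK2 was 0.0667 to 0.225. HK1, the constitutive hexokinase, had values from 1459 to 1915 normalized reads over the 6 libraries, a log2 fold change of -0.12 (SE 0.21) and overlapping groups. For the phosphofructokinase subunits, which together form the committed step of the pathway, PFKP had a log2 fold change of -0.72 (SE 0.31) with groups that did not overlap, and PFKM one of 0.37 (SE 0.31). PFKL had the largest positive value among the enzymes, 1.01 (SE 0.47), where siControl replicate 3 held 132 normalized reads and the other 5 libraries 545 to 1109. None of these passed the test (edgeR adjusted p of 0.274 to 0.838 over HK1, PFKP, PFKM and PFKL).

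The 3 glycolytic mRNAs with the most reads did not pass the test. GAPDH, glyceraldehyde-3-phosphate dehydrogenase and a common reference gene, had 84711, 123910 and 91951 normalized reads in siControl and 78963, 96881 and 62663 in siCGGBP1. The groups overlapped, with a log2 fold change of -0.33 (SE 0.17, edgeR adjusted p = 0.357). ENO1, the main enolase, had 25856, 30076 and 27545 normalized reads in siControl and 16656, 23953 and 16561 in siCGGBP1. These did not overlap, but the log2 fold change of -0.55 (SE 0.16) did not pass the test (edgeR adjusted p = 0.113). PKM, pyruvate kinase, had 32003, 26306 and 17060 normalized reads in siControl and 18657, 18895 and 10147 in siCGGBP1. Replicate 3 was the lowest of each group and the groups overlapped, with a log2 fold change of -0.66 (SE 0.25, edgeR adjusted p = 0.211, and 0.0435 with no filter on low counts). DESeq2's Wald test gave PKM an adjusted p of 0.0681, and edgeR with each library left out in turn gave 0.147 to 0.517. ALDOA, an aldolase, had 9856 to 13917 normalized reads in siControl and 8215 to 8879 in siCGGBP1, a log2 fold change of -0.52 (SE 0.17, edgeR adjusted p = 0.136). The remaining enzymes, GPI, ALDOC, PGK1 and ENO2, had overlapping groups and log2 fold changes of 0.27, -0.40, -0.18 and -0.24.

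**Figure D2:**
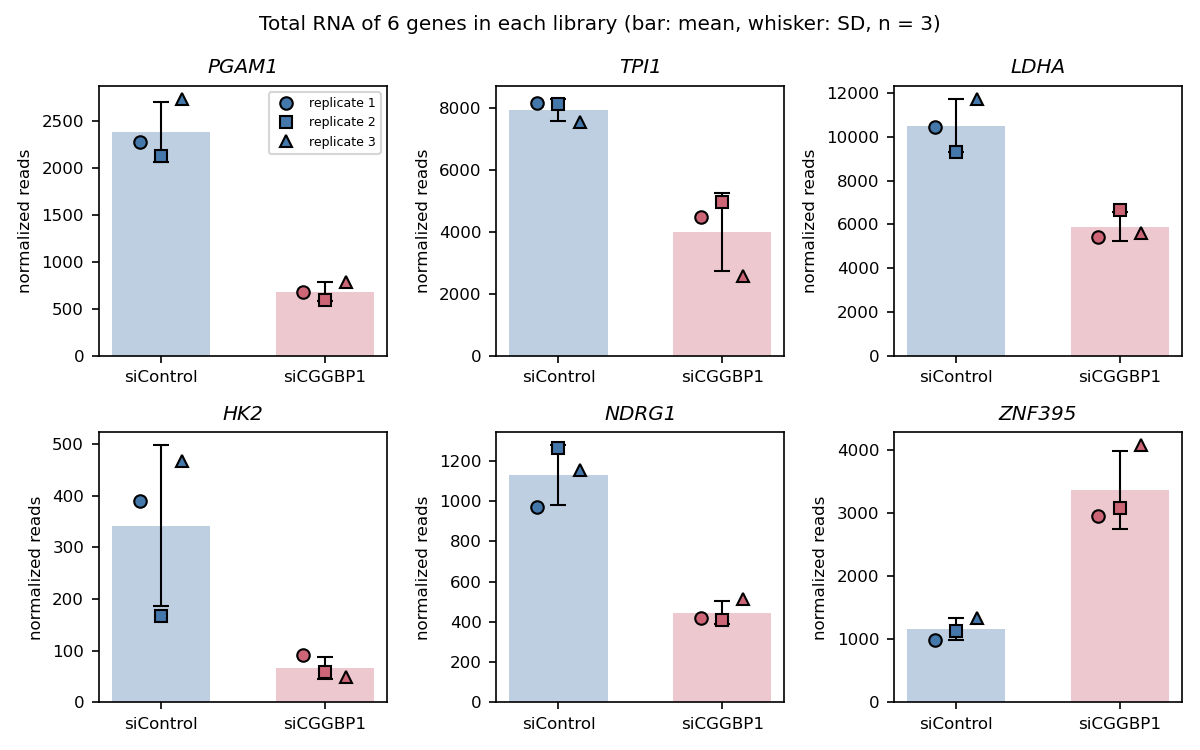
Normalized reads of PGAM1, TPI1, LDHA, HK2, NDRG1 and ZNF395 in the 3 siControl and 3 siCGGBP1 libraries, on linear axes that start at 0. Bars are means, whiskers the SD (n = 3) and symbols the replicates. In all 6 panels the groups do not overlap, and ZNF395 is the panel in which siCGGBP1 is higher. HK2 passed the filter on low counts through its siControl libraries only.

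The 17 enzymes together took 1.75%, 2.08% and 1.66% of all reads in siControl replicates 1 to 3 and 1.37%, 1.59% and 1.15% in siCGGBP1. The groups did not overlap, with means of 1.83 ± 0.219% and 1.37 ± 0.222% (SD, n = 3 each). GAPDH alone made up 0.851 ± 0.192% and 0.682 ± 0.149%, and these ranges overlapped. Without GAPDH the shares were 0.977 ± 0.0716% and 0.690 ± 0.0735% and again did not overlap. The 12 other HIF targets took 0.0609 ± 0.00706% in siControl, against 0.0662 ± 0.00808% in siCGGBP1, with overlapping ranges. In siControl, ZNF395 alone held 858.0, 1190.5 and 1333.5 of the 5655.3, 7035.5 and 8277.4 reads of this set. In siCGGBP1, ZNF395 held 2572.0, 3099.0 and 4947.5 of 6877.3, 6746.8 and 10432.0 reads. The similar shares thus rest on ZNF395 and do not describe the rest of the set. In the single siControl library without 4sU the enzymes took 1.42%, inside the siCGGBP1 range, and GAPDH 0.514%, below every siCGGBP1 library. With 200 µM 4sU the enzymes took 1.63%. Without GAPDH these libraries had 0.907% and 0.986%, above every siCGGBP1 library. These shares are given as values with no test.

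Cell cycle genes also had mostly negative fold changes. Of the G2/M list all 20 genes had a negative fold change, 3 of them past the test (AURKA, CENPF and BIRC5), with a median of -0.54. Of the S phase list 18 of 19 tested genes were negative, 2 past the test (MCM3 and MCM5), with a median of -0.49. Among all tested genes 1.21% were lower past the test. Each of these 5 calls was lost without at least 4 of the 6 libraries in turn, at adjusted p of up to 0.153 (edgeR). DESeq2's Wald test called 5 of the 20 G2/M genes and 7 of the 19 S phase genes lower, and 0 higher. Summed over the list, the G2/M genes had 70517 to 91729 normalized reads in siControl and 48620 to 55920 in siCGGBP1. Their part in the lower glycolytic mRNAs was not tested.

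SLC2A1, the glucose transporter GLUT1, had 1890, 2274 and 1230 normalized reads in siControl and 1184, 836 and 565 in siCGGBP1. All siCGGBP1 values lay below the siControl range. Its log2 fold change of -1.06 (SE 0.31) did not pass the test (edgeR adjusted p = 0.103), while the adjusted p was 0.0171 with DESeq2's Wald test and 0.00655 with no filter on low counts. With each library left out in turn, the edgeR adjusted p of SLC2A1 was 0.114 to 0.283. SLC16A3, the lactate exporter MCT4, was not tested, with 1 to 48 reads in the 6 libraries. Of the kinases, only PFKFB3, which makes the fructose-2,6-bisphosphate that activates phosphofructokinase, could be tested. It had 250, 317 and 196 normalized reads in siControl and 517, 317 and 492 in siCGGBP1. The second replicates met at about 317 normalized reads, and the log2 fold change of 0.80 (SE 0.38) did not pass the test (edgeR adjusted p = 0.317). PFKFB4, and the kinases PDK1 and PDK3 that switch off pyruvate dehydrogenase, lay below the filter. Each had 21 to 177 reads in 5 of the 6 libraries and 0 in siCGGBP1 replicate 3.

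**Figure D3:**
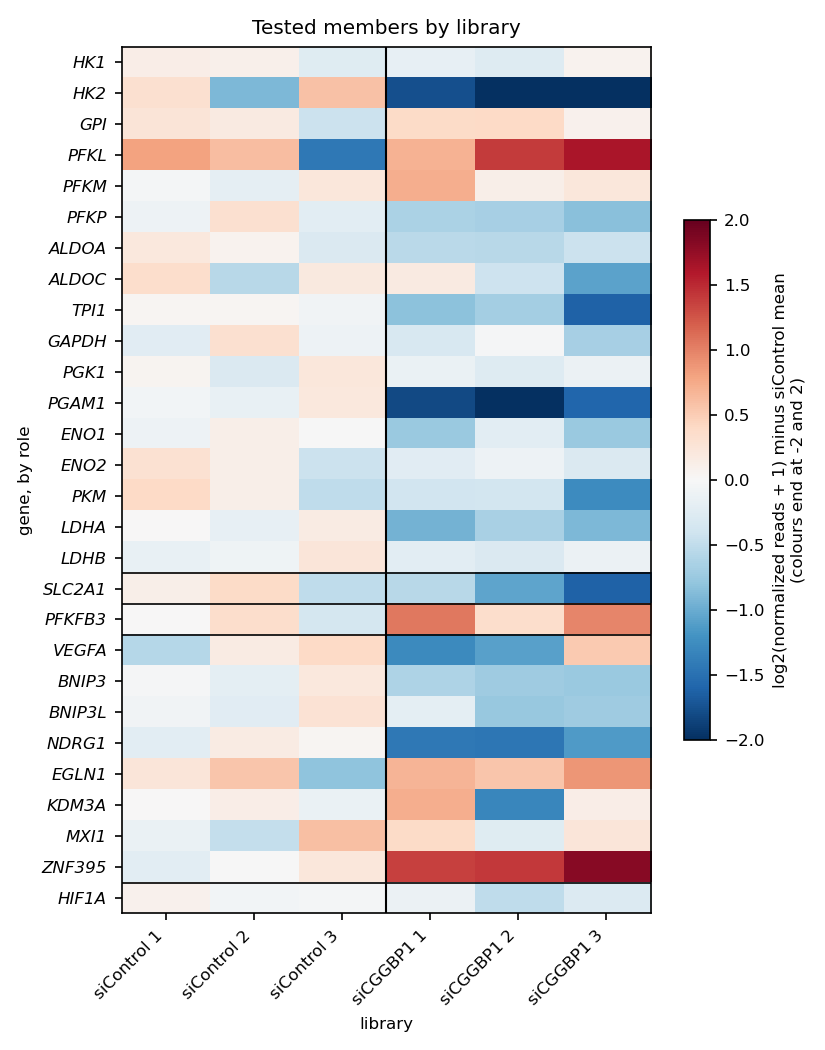
Total RNA of the 28 tested members in each library, as log2(normalized reads + 1) minus the mean of the siControl libraries, with genes in rows by role and libraries in columns. Blue is lower and red higher, with colours ending at -2 and 2. PGAM1, HK2 and NDRG1 are blue in all 3 siCGGBP1 columns, ZNF395 is red in all 3, and siControl replicate 3 is the blue cell of PFKL.

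The other HIF targets showed no common direction. Of the 12, 8 were tested, 4 had a negative and 4 a positive fold change, and 1 passed the test in each direction. Their median log2 fold change was -0.18, and it was 0.02 without siCGGBP1 replicate 2. NDRG1 (ENSG00000104419), a stress-responsive gene induced by low oxygen, had 970, 1263 and 1154 normalized reads in siControl and 417, 411 and 512 in siCGGBP1. The groups were far apart, and NDRG1 fell 2.53-fold, a log2 fold change of -1.34 (SE 0.26, edgeR adjusted p = 0.0220). The adjusted p stayed below 0.05 without siCGGBP1 replicate 3, at 0.0181, and was 0.0592, 0.0976 and 0.0683 without siControl replicates 1, 2 and 3 and 0.116 and 0.0923 without siCGGBP1 replicates 1 and 2.

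ZNF395 (ENSG00000186918), a zinc finger factor that is also induced by low oxygen, moved the other way. It had 992, 1139 and 1341 normalized reads in siControl and 2954, 3071 and 4070 in siCGGBP1. The lowest siCGGBP1 library lay above the highest siControl library. ZNF395 rose 2.91-fold, a log2 fold change of 1.54 (SE 0.22, edgeR adjusted p = 0.00480), and passed the test when any 1 library was left out. The annotated gene overlaps FBXO16 on the same strand, and ZNF395 had fractional reads in 3 of the 6 libraries, and whether reads are shared between the genes was not tested.

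BNIP3 and BNIP3L, receptors that mark mitochondria for autophagy, had log2 fold changes of -0.70 (SE 0.25) and -0.55 (SE 0.24). BNIP3 had 1032, 916 and 1210 normalized reads in siControl and 681, 640 and 623 in siCGGBP1, without overlap. BNIP3L had 1882, 1693 and 2423 in siControl and 1718, 1164 and 1209 in siCGGBP1, with overlap. Neither passed the test (edgeR adjusted p = 0.174 and 0.267). VEGFA, the angiogenic growth factor, had 155, 258 and 302 normalized reads in siControl and 94.2, 107 and 329 in siCGGBP1, where siCGGBP1 replicate 3 was the highest of all 6. Of the feedback genes, EGLN1, the main oxygen-sensing prolyl hydroxylase, had 368, 456 and 177 in siControl and 498, 456 and 569 in siCGGBP1, a log2 fold change of 0.61 (SE 0.38, edgeR adjusted p = 0.470). KDM3A, a histone demethylase, and MXI1, an antagonist of MYC, had log2 fold changes of 0.06 (SE 0.55) and 0.08 (SE 0.31), and both changed sign when certain single libraries were left out. MXI1 had 743, 588 and 1236 normalized reads in siControl and 1057, 692 and 960 in siCGGBP1.

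HIF1A, which encodes the oxygen-regulated subunit itself, had 2547, 2325 and 2351 normalized reads in siControl and 2226, 1699 and 1983 in siCGGBP1. The siCGGBP1 values were all lower, but the log2 fold change of -0.29 (SE 0.19) did not pass the test (edgeR adjusted p = 0.504). The subunit is mainly controlled as a protein, which was not measured here. The targets below the filter were CA9, a carbonic anhydrase that depends strongly on HIF, whose 6 reads all came from siControl replicate 1, ANKRD37, with 0 to 49 reads, ADM, the vasodilator peptide adrenomedullin, with 39 to 162 reads, and EGLN3, the inducible prolyl hydroxylase. EGLN3 had 30, 17 and 202 reads in siControl and 0, 11 and 0 in siCGGBP1, and the high value rested on siControl replicate 3.

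The wider pathways were read from lists of further genes, also drawn up with earlier results known. Of 14 tested regulators of the HIF system, 0 passed the edgeR test or DESeq2's Wald test and 2 had an unadjusted p under 0.05. Of 29 further HIF targets 23 were tested. None passed the edgeR test, 5 had an unadjusted p under 0.05, DESeq2 called 1 (P4HA1, higher), and 14 of the 23 fold changes were positive, with a median of 0.10. Of all tested genes, 16.4% had an unadjusted p under 0.05 by edgeR, so that the counts in these 2 lists lie near that share. Of 26 tested genes of glucose and pyruvate metabolism outside the members, 0 were higher past the test, and those lower past it included MPC2 and SLC16A1, to which DESeq2 added SLC2A3. MPC2, a subunit of the mitochondrial pyruvate carrier, had 1000, 728 and 858 normalized reads in siControl and 255, 378 and 372 in siCGGBP1, a log2 fold change of -1.36 (SE 0.30, edgeR adjusted p = 0.0387). SLC16A1, the lactate and pyruvate transporter MCT1, had 2796, 2003 and 1842 in siControl and 1255, 1099 and 848 in siCGGBP1, a log2 fold change of -1.05 (SE 0.24, edgeR adjusted p = 0.0476). For both the groups did not overlap. The call of MPC2 held only without siCGGBP1 replicate 3 (edgeR adjusted p = 0.0402) and was lost otherwise, at up to 0.165, and that of SLC16A1 was lost with any 1 library left out, at 0.0799 to 0.194.

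For newly synthesized RNA, each read count was multiplied by the estimated share of new molecules, the new-to-total ratio. None of the 28 members passed the test in new RNA by edgeR or by DESeq2's Wald test, where 0.0493% of all tested genes did by edgeR, and 1 had an unadjusted p under 0.05, against 3.15% of all tested genes. In replicate 3 of both groups the ratio was estimated at 0 for 57.4% and 59.8% of the tested genes, against 22.5% to 31.9% in replicates 1 and 2. In the single siControl library with 200 µM 4sU it was 0 for 55.6%. edgeR fitted a biological coefficient of variation of 1.78 to new and of 0.399 to total RNA. In counts simulated with these values, a log2 fold change of 2 was recovered for 74.5% of 200 genes in total and 0% in new RNA. The lack of calls in new RNA thus does not show that the members were unchanged there. The 1 member was ZNF395. Its new reads were 93, 175 and 21 in the siControl libraries, against 353, 272 and 630 after siCGGBP1. It was the only tested member whose new reads did not overlap between the groups, where 2.88% of all tested genes did so with higher and 4.49% with lower new reads in siCGGBP1. Its log2 fold change was 2.01 (SE 0.86, unadjusted p = 0.0195, edgeR adjusted p = 0.993).

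For the 3 enzymes that fell in total RNA, new reads overlapped between the groups. For PGAM1 they numbered 7, 55 and 37 in siControl, against 15, 37 and 0 in siCGGBP1, a log2 fold change of -0.86 (SE 2.79). TPI1 had 47, 47 and 149 against 0, 110 and 157, a log2 fold change of -0.06 (SE 1.64). LDHA had 112, 289 and 96 against 249, 55 and 176, a log2 fold change of -0.05 (SE 1.05). The errors leave room for both a fall as large as in total RNA and a rise. NDRG1 had 23, 80 and 0 new reads against 4, 0 and 0, a fitted log2 fold change of -4.41 (SE 3.48) that rests on counts at or near 0.

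The conversion rate itself counts converted bases per 100 covered T and needs no model of the ratio. Summed over the 17 enzymes it was 0.0725 ± 0.0139 (SD, n = 3) in siControl, 0.0711 ± 0.0137 (SD, n = 3) in siCGGBP1 and 0.0306 with no 4sU. Over the 12 other HIF targets it was 0.222 ± 0.156 and 0.308 ± 0.0488 (SD, n = 3 each), and 0.0828 without 4sU. The enzymes had the lower rate in 5 of the 6 libraries, and siControl replicate 3 was the exception, at 0.0610 for the enzymes and 0.0492 for the other HIF targets. Over all tested genes it was 0.218 and 0.241. The siControl and siCGGBP1 ranges overlapped in both sets. With the siControl libraries pooled, the rate was above 0.2 for 1 of 17 enzymes (ALDOC), for 4 of 8 tested other HIF targets and for 49.5% of all tested genes. The median rate per gene was 0.0630 for the enzymes, 0.209 for the other HIF targets and 0.198 for all tested genes, and the median new-to-total ratio was 0.43%, 3.22% and 2.94%.

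**Figure D4:**
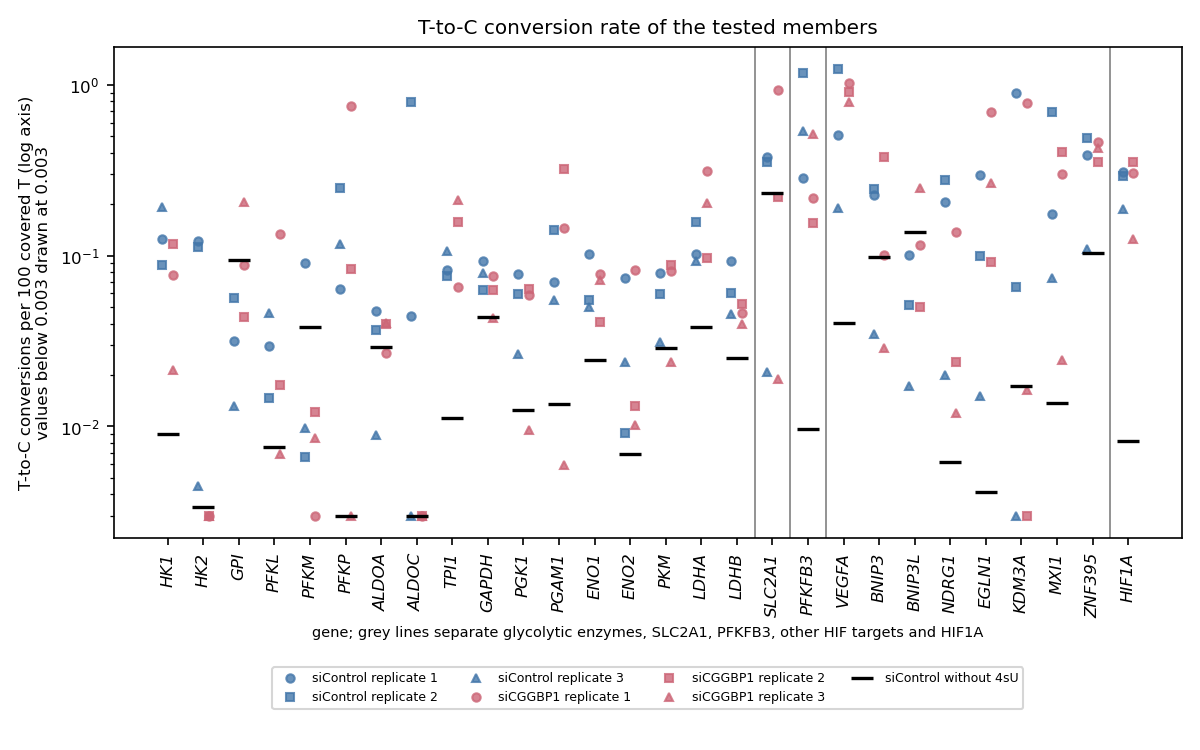
Conversion rate (T-to-C, per 100 covered T) of the 28 tested members in each library with 75 µM 4sU, on a log axis with values below 0.003 drawn at 0.003. Blue symbols are siControl, red symbols siCGGBP1, and black bars the single siControl library without 4sU. Most enzymes lie near 0.1 or below, while VEGFA, PFKFB3 and ZNF395 lie higher, and the bar of SLC2A1 reaches 0.231 without 4sU.

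In pooled siControl the highest were ADM at 1.71, PDK1 at 0.898, PFKFB3 at 0.762, PFKFB4 at 0.652 and VEGFA at 0.636, against 0 to 0.0476 in the library without 4sU, and ADM, PDK1 and PFKFB4 rested on low reads. ZNF395, SLC2A1 and KDM3A came next, and then HIF1A, with 0.306, 0.294 and 0.187 in siControl and 0.306, 0.354 and 0.125 in siCGGBP1, against 0.00820 without 4sU. GAPDH, ENO1 and PKM stood at 0.0754, 0.0658 and 0.0597, which was 1.72, 2.67 and 2.07 times their values without 4sU. ZNF395 had rates of 0.390, 0.487 and 0.109 in siControl and 0.465, 0.354 and 0.425 in siCGGBP1. Without 4sU its rate was 0.103, so that siControl replicate 3 lay near the background. Its new-to-total ratio was 10.8%, 14.7% and 1.57% in siControl and 13.7%, 8.77% and 12.7% in siCGGBP1, overlapping ranges. LDHA had ratios of 1.24%, 2.97% and 0.82% in siControl and 5.26%, 0.81% and 2.58% in siCGGBP1. For GPI, BNIP3L and PFKM the library without 4sU had rates of 0.0937, 0.137 and 0.0381, above the 0.0370, 0.0509 and 0.0308 of pooled siControl. For ALDOA it had 0.0292, against 0.0328. Little or none of the pooled siControl signal of GPI, BNIP3L, PFKM and ALDOA thus stood above the background. SLC2A1 had 0.231 without 4sU, against 0.284 in pooled siControl. Its rates were 0.376, 0.354 and 0.0209 in siControl and 0.930, 0.220 and 0.0190 in siCGGBP1, above the background in some libraries only.

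Fractional read counts were present in at least 1 of the 6 libraries for 25 of the 36 members and for 16 of the 17 enzymes. PGAM1 had them in 4 of the 6 libraries, TPI1, LDHA and GAPDH in all 6, and NDRG1 in 0. How the fractions arose is not given in the sources used here. As background, many glycolytic enzymes have processed pseudogenes of near-identical sequence, and whether these share reads with them was not tested. PGK1, ENO2, ALDOC, PFKFB4 and EGLN3 overlap another listed gene on the same strand, and whether reads were counted by strand is not given in the sources used here.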

How the data were processed

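SLAM-Seq libraries of U-2OS Tet-ON cells, 3 siControl and 3 siCGGBP1 with 75 µM 4sU and single siControl libraries with 0 and 200 µM, were analysed from 1 table of 18388 genes. Libraries were made with a 3′ end kit. Per the labels and the study's methods, the authors removed ribosomal reads with Bowtie2 2.3.0, mapped with STAR 2.5.3a to GRCh38 (Ensembl 90) and ran GRAND-SLAM 2.0.7. The deposited expected counts (reads, T-to-C conversions, covered T) are not normalized and not always whole. The deposited new-to-total ratio is a fraction per gene and library, given as maximum a posteriori value, posterior mean and credible limits, and is printed here as a percent. 30 further per-library columns were not used. No removal of PCR duplicates is named, so reads are not independent molecules.

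Reads were rounded. The 10138 genes that reached 100 reads in 3 or more of the 6 libraries were compared with edgeR 4.0.16 (quasi-likelihood F test, TMM, Benjamini-Hochberg over all tested genes) in R 4.3.3. New RNA was reads multiplied by the maximum a posteriori ratio, taken as 0 where a gene had 0 reads, with library sizes and TMM factors of total reads. The study's methods used the DESeq2 Wald test, which was run here as an alternative (DESeq2 1.42.0). SE was taken from the fit as the size of the log2 fold change over the root of F. Normalized reads are scaled to the mean effective library size. The edgeR fit was first tested on simulated counts for 10138 genes, 200 of which had a log2 fold change of 2. All genes of a simulation shared the same coefficient of variation, 0.399 for total and 1.78 for new RNA. Simulated counts were scaled by their own library sizes and TMM factors. The new RNA simulation thus differed from the fit above, which used those of total reads. Of the 200 changed genes 74.5% were recovered in total RNA, with 2.61% false calls, and 0% in new RNA.

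Members and gene lists were chosen with earlier results of these data known. 1 gene of the list on glucose and pyruvate metabolism is not reported here. Values per library are given for members past the total RNA test, for up to 3 members per role with the highest reads, and for members whose new reads do not overlap. Other members' values were added after they were seen. Positions are from GENCODE 44, which matched 18198 gene identifiers. Promoters are from RefSeq, where NDRG1, BNIP3L, VEGFA and ZNF395 had no entry. Alternatives were a replicate block, size factors of DESeq2, other filters and thresholds, each library left out in turn and, for new RNA, other estimates.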

Additional observations from a re-analysis of the deposited data

Results flagged for a closer look

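The siControl library with 200 µM 4sU entered no comparison, and its T-to-C conversions stood above those of the library without 4sU for both gene sets. Over the glycolytic enzymes it had 0.0779 conversions per 100 covered T, against 0.0306 without 4sU and 0.0725 ± 0.0139 (SD, n = 3) in siControl with 75 µM. Over the other HIF targets it had 0.436, against 0.0828 without 4sU and 0.222 ± 0.156 (SD, n = 3) with 75 µM. Of the 1024.5 conversions of that set at 200 µM, ZNF395 held 380 and ADM 245. Over all tested genes the rate was 0.217 with 200 µM, 0.0642 without 4sU and 0.218 ± 0.0313 (SD, n = 3) with 75 µM. The library with 200 µM thus had no higher rate than those with 75 µM over all tested genes. The libraries with 0 and 200 µM are single ones, so that the differences have no replicate check.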

How the results depend on the processing

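In total RNA 5 of 28 members passed the test. The count was 9 with DESeq2's Wald test (ALDOA, ENO1, HK2 and SLC2A1 added), 8 with no filter on low counts, 3 with an absolute log2 fold change above 1 added, and 8 without replicate 3 of both groups, an alternative chosen after seeing the data. Leaving out each library in turn gave 2 to 3, with PGAM1 and ZNF395 in all 6 fits. It was 5 with DESeq2 size factors and 6 with 100 reads in each library or with an adjusted p under 0.1. Fitted with the replicate block it was 7, with PKM and SLC2A1 added (adjusted p = 0.0270 and 0.0408 by edgeR). Deviations of same-numbered libraries correlated at 0.105, 0.172 and 0.0837, each library best with its own number, a hint from the data only, and the labels do not say what a number stands for. In new RNA the count stayed at 0 in all 14 alternatives run. The median log2 fold change ranged from -0.51 to -0.25 for the enzymes and from -0.51 to 0.02 for the other HIF targets.

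Of 402 single-gene values recomputed, 360 kept direction and side of the threshold, 16 no longer passed it, 13 newly passed it and 13 changed sign, none of these past the test. With single libraries left out, KDM3A in total RNA ranged from -0.42 to 0.44 and was negative without siCGGBP1 replicate 1 or siControl replicate 3. It was -0.13 with the replicate block and -0.034 without replicate 3 of both groups. MXI1 ranged from -0.14 to 0.44 and was negative without siCGGBP1 replicate 1, siControl replicate 1 or siControl replicate 2. In new RNA LDHA ranged from -0.75 to 0.51 and was positive without siCGGBP1 replicate 2, siCGGBP1 replicate 3 or siControl replicate 2. TPI1 ranged from -0.59 to 0.68 and was positive without siCGGBP1 replicate 1 or siControl replicate 3, and it was 0.15 without replicate 3 of both groups. The cause was not tested. With 3 libraries a group and ratios often at 0, the lack of calls in new RNA does not show that any member was unchanged.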
